A study of Rattus norvegicus with 4 samples.

Results

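The tissue kallikreins are a family of secreted serine proteases encoded by a cluster of closely related genes on rat chromosome 1. Every probe set (a group of short array probes read as 1 value) whose platform gene symbol starts with Klk1 was taken, which gave 6 of 15866 non-control probe sets, 1 for each of 6 genes among 10411 with a symbol of their own: Klk1 (1387820_at), Klk1b3 (1367961_at), Klk1c2 (1368628_at), Klk1c3 (1371084_at), Klk1c4 (1371080_at) and Klk1c9 (1370289_x_at). In the platform annotation each of the 6 carried 1 symbol, and 0 probe sets with several symbols named a kallikrein. That does not show that they read 1 gene only: the letters x_at in the Klk1c9 name mark an Affymetrix probe set with probes that may match other transcripts, and RefSeq holds 10 genes of the Klk1, Klk1b and Klk1c kind, 4 of them not analysed here. Probe sequences were not used here, so which near-identical members share probes was not tested. The same rule would also take Klk10 to Klk15, for which no probe set was analysed here.

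The kidneys came from male rats aged 9 weeks of 2 inbred strains, the spontaneously hypertensive rat (SHR, with inherited high blood pressure) and Brown Norway (BN, with normal blood pressure), exposed before birth to nicotine or to saline. RNA was pooled within each group, from 13 animals for SHR nicotine and 12 each for SHR saline, BN nicotine and BN saline, and each pool was read on 1 Affymetrix RAE-230A array. The series asks how nicotine before birth affects the rat kidney. With 1 pool per group the spread between animals is not seen. The p-values and intervals rest on the spread over these 4 arrays, borrowed mostly from other probe sets of like intensity. Each probe set itself gave 1 degree of freedom to its error, and the others gave 16.51 (strain) or 14.04 (nicotine).

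Tissue kallikrein cuts kininogens to release kinins, short peptides that act on the B1 and B2 receptors, widen vessels and promote salt excretion. In the kidney it is made mainly by the connecting tubule and passes into the urine. Kinins are then shortened by peptidases such as angiotensin converting enzyme and neprilysin. The rat family is large, and its members differ in their substrates. RefSeq lists rK-1 among the older names of Klk1b3 and RGK-7 among those of Klk1, and rK-1 is the name under which the main kinin-releasing kallikrein of the rat has been described. Klk1c2 is tonin, a protease that can form angiotensin II, and Klk1c9 is a protease of the submandibular gland.

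The likeness of the family can be seen in the promoters of the 3 members that were well above background. Each window holds the 250 bases before and 50 after the annotated gene start, from RefSeq (build GRCr8, a BN genome). Capitals mark the longest run shared by all 3 windows, of 24 bases, and the letters TTTAAA downstream of it.
Klk1 (chr1:103778902-103779201, plus strand): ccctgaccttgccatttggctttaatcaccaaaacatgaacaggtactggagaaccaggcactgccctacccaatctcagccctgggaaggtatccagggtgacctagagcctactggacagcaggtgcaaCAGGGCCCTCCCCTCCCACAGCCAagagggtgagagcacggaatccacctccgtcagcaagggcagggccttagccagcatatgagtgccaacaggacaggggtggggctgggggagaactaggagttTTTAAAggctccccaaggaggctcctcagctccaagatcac
Klk1b3 (chr1:103845397-103845696, plus strand): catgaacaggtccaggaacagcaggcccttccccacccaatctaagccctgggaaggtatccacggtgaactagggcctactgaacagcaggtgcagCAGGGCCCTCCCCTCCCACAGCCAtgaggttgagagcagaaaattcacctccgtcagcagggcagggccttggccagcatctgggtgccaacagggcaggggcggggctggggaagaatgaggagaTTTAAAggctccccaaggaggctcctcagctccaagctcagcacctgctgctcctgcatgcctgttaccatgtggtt
Klk1c4 (chr1:103575159-103575458, minus strand): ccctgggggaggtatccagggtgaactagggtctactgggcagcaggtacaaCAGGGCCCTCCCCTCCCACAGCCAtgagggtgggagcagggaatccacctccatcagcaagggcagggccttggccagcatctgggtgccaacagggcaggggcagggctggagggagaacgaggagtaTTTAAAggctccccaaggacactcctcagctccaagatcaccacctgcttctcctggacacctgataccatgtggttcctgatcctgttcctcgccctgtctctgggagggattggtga

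Over the stretch where windows overlap, Klk1 and Klk1b3 were 87.6% identical, Klk1 and Klk1c4 90.1%, and Klk1b3 and Klk1c4 88.8%. The pair closest to each other among the 5 members with a promoter entry was Klk1c3 and Klk1c4, at 92.7%, and the lowest identity was 81.2% (Klk1b3 and Klk1c2). The shared run was found in 5 of 33469 RefSeq promoter windows, those of Klk1, Klk1b3, Klk1c3, Klk1c4 and Klk1c10, and in 0 on the other strand. TTTAAA, which reads the same on both strands and was chosen after the sequences were seen, stood once in each window and occurs in 13.6% of all windows. It began at position 10 after the annotated start in Klk1, and at -27 and -69 before it in Klk1b3 and Klk1c4, so the windows are shifted against each other by the annotated starts. TATAAA (14.2% of all windows) and AGAACA (20.7%), each searched on both strands, were in none of the 3 windows. AGGTCA (16.2% on both strands) was in the Klk1 window, as 2 copies on the reverse strand, and in neither of the other two. These are matches of letters in a BN sequence; the SHR sequence was not analysed here.

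Signals are MAS5 intensities on an arbitrary linear scale. Background was taken to end at 44.5, a floor set at the 40th percentile of the whole table to which lower values were raised before ratios were taken, and a probe set was called measured from 89.0, which is 2 times the floor. Of the 6 kallikrein probe sets, 2 (Klk1 and Klk1b3) were measured on all 4 arrays, 1 (Klk1c4) was measured in the BN pools only, and 3 (Klk1c2, Klk1c3 and Klk1c9) stayed below 89.0 on every array. The 2% trimmed mean was 150.0 on each array. Of the defining markers of kidney epithelium, 11 of 11 with a probe set were measured on at least 1 array. As a measure of RNA integrity, 3' probes of beta-actin read 1.34 and 1.39 times the 5' probes in SHR and 1.49 and 1.54 times in BN, nicotine before saline. For Gapdh this ratio was 1.11 and 1.0 in SHR and 1.09 and 1.07 in BN. The part of RNA integrity in the strain differences below was not tested.

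**Figure D1:**
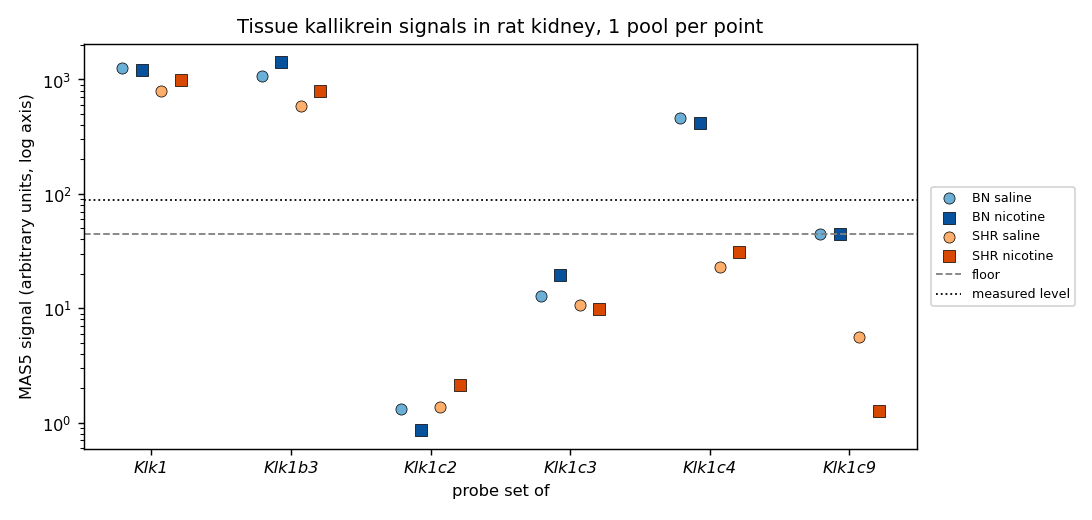
MAS5 signal (log axis, arbitrary units) of the 6 tissue kallikrein probe sets, 1 point for each pool, with the floor of 44.5 dashed and the measured level of 89.0 dotted. Klk1, Klk1b3 and Klk1c4 lie lower in both SHR pools than in both BN pools, and Klk1c4 is below the floor in SHR; levels of different probe sets are not comparable with each other.

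Klk1 read 798.2 in SHR saline, 982.1 in SHR nicotine, 1263.3 in BN saline and 1207.2 in BN nicotine. Both SHR pools were below both BN pools, with the SHR saline pool the lowest. SHR was lower by 1.58-fold under saline and 1.23-fold under nicotine. A strain ratio at least as low was found in 3.1% of measured probe sets under saline and 14.8% under nicotine. Averaged over treatments, Klk1 fell by 0.48 on the log2 scale in SHR against BN (SE 0.08, 95% interval -0.65 to -0.31, 1.39-fold lower, adjusted p = 0.000336 with limma). It lost the call without either BN pool (adjusted p = 0.0862 without BN nicotine and 0.116 without BN saline, limma) and without the intensity trend of the error model (0.0676); with all 4 arrays, strain alone gave 0.0121.

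Klk1b3 read 588.6 in SHR saline, 795.9 in SHR nicotine, 1080.4 in BN saline and 1411.2 in BN nicotine. The strains did not overlap, and within each strain the nicotine pool was the higher one. SHR was lower by 1.84-fold under saline and 1.77-fold under nicotine, so this ratio was nearly the same under both treatments. The average fell by 0.85 (SE 0.07, 95% interval -1.0 to -0.7, 1.8-fold lower, adjusted p = 8.73e-08 with limma). Without SHR saline or without BN nicotine the adjusted p rose to 0.0702 and 0.0931, in fits of strain alone, where all 4 arrays gave 0.00876.

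Klk1c4 showed the widest strain gap of the 3 measured members. It read 22.9 in SHR saline and 31.3 in SHR nicotine, both below the floor, against 456.7 in BN saline and 419.0 in BN nicotine. Both SHR pools were thus at background level while both BN pools were clearly above it. SHR was lower by at least 10.3-fold under saline and at least 9.41-fold under nicotine. The average over treatments was at least 9.83-fold lower in SHR (log2 -3.3 with SHR at the floor, SE 0.14, adjusted p = 5.1e-12 with limma). Both SHR values were raised to the same floor, so the SE holds no spread between the SHR pools. The probe set entered the test only through BN and had to differ, so nothing is read from this p-value. The size depends on the floor: the log2 value was -2.18 with the floor at the 60th percentile and -4.03 at the 20th, where neither SHR value was raised and the ratio takes SHR signals counted as background above. Whether the array probes for Klk1c4 match the SHR transcript as well as the BN one was not tested.

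Read against the background, 9.42% of the 7037 probe sets tested were called lower in SHR and 8.67% higher (18.1% in all), and in 28.9% both SHR arrays lay below both BN arrays. All of the 3 tested members were called lower. The Klk1c4 probe set passed the filter only through BN, where it is high, so it had to differ and the count of 3 is not read as support for a family-wide shift. Counted by size under saline, 3.95% of measured probe sets had SHR at least 1.5-fold below BN, among them Klk1, Klk1b3 and Klk1c4, and 4.17% had it above. Under nicotine 4.24% were below, among them Klk1b3 and Klk1c4 but not Klk1, and 4.2% above. With no filter on low probe sets none of the 3 kept its call (adjusted p = 0.53 for Klk1 and 0.308 for the others with limma), and 0 of all 15866 probe sets passed, with 1719 at an unadjusted p under 0.05. In whole-kidney RNA, fewer cells of a type and less RNA per cell cannot be told apart.

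**Figure D2:**
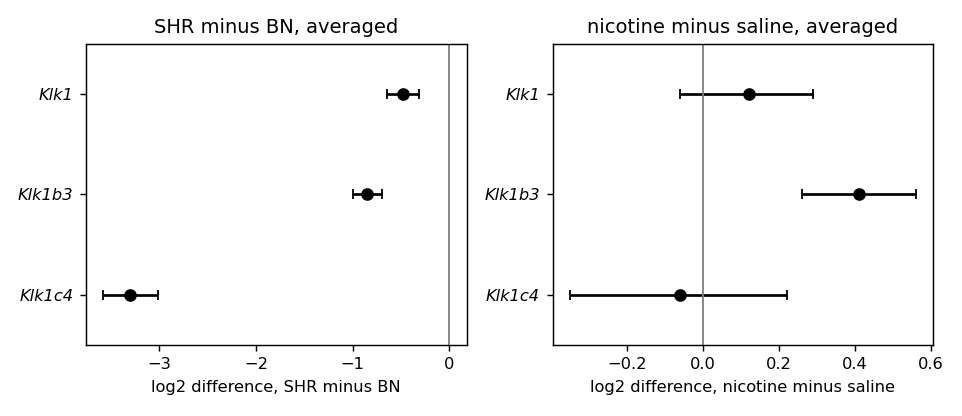
Log2 differences of the 3 measured kallikreins, SHR minus BN averaged over treatments (left) and nicotine minus saline averaged over strains (right), with 95% intervals from limma. The strain differences run from -0.48 for Klk1 to -3.3 for Klk1c4, where the SHR value is the floor and the difference a bound. On the right, the interval of Klk1b3 runs from 0.26 to 0.56 and those of Klk1 and Klk1c4 include 0. The Klk1c4 value there takes in an SHR ratio fixed by the floor and is not read.

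The 3 remaining members had signals too low for a ratio. Klk1c2, tonin, read from 0.857 to 2.15 and Klk1c3 from 9.82 to 19.4 over the 4 arrays. Klk1c3, whose promoter was the closest to that of Klk1c4 among members on the array, was thus below the floor in both strains. Klk1c9 read 1.26 in SHR nicotine and 5.67 in SHR saline, against 44.6 in BN nicotine and 44.3 in BN saline. The BN values lay at the floor and the SHR values far below it, the same order as for Klk1c4. All of these are background levels, and whether this x_at probe set also reads Klk1c4 was not tested. Klk1c9 was not tested. When the floor was put at the 20th percentile (15.6), Klk1c9 passed the filter, but only through BN, where it is high, so it had to differ there and nothing is read from that fit.

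Klk1b3 read higher in the nicotine pool of both strains, but no kallikrein passed the nicotine test over all probe sets. Klk1b3 was 1.35-fold higher in the SHR nicotine pool (795.9 against 588.6) and 1.31-fold higher in the BN nicotine pool (1411.2 against 1080.4). The log2 ratios of 0.44 and 0.39 differed by 0.05. Averaged over strains the difference was 0.41 (SE 0.07, 95% interval 0.26 to 0.56), with an adjusted p of 0.0711 and an unadjusted p of 3.08e-05 by limma. Over the 13 alternatives the adjusted p ranged from 0.00233 to 1.0, and it passed the threshold in 1 of them, the floor at the 60th percentile. In fits of treatment alone the average was -0.03 without SHR saline and -0.0028 without BN nicotine; such fits weigh the strains unequally. Of 6924 probe sets, 20 (0.289%) had both nicotine ratios at least as high as the lower one of Klk1b3, and 24.4% had a nicotine pool above the saline pool in both strains.

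The ratios of Klk1 had opposite signs in the strains. Klk1 was 1.23-fold higher under nicotine in SHR (982.1 against 798.2) and 1.05-fold lower in BN (1207.2 against 1263.3). The log2 ratios of 0.30 and -0.07 differed by 0.36; with 1 pool per group this difference was not tested. The average over strains was 0.12 (SE 0.08, 95% interval -0.06 to 0.29, adjusted p = 0.998 with limma). Klk1c4 could be compared for nicotine in BN only, where it was 1.09-fold lower (419.0 against 456.7, log2 -0.12). Its average was -0.06 (95% interval -0.35 to 0.22, adjusted p = 0.998 with limma). This takes in an SHR ratio of 0.0, fixed because both SHR values were raised to the floor. Nothing is read from that average, its interval or its p-value.

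In this comparison 0 of 6924 probe sets passed with limma (0.0% in either direction), and 376 had an unadjusted p under 0.05. By size, 1.07% of measured probe sets were at least 1.5-fold higher under nicotine in SHR and 0.735% in BN, and 0.904% and 0.894% were lower. No measured kallikrein was 1.5-fold apart in either strain. Over all measured probe sets the SD of the nicotine log2 ratio was 0.21 in SHR and 0.20 in BN, and a ratio at least as high as that of Klk1b3 was found in 2.5% of them in SHR and 3.07% in BN.

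**Figure D3:**
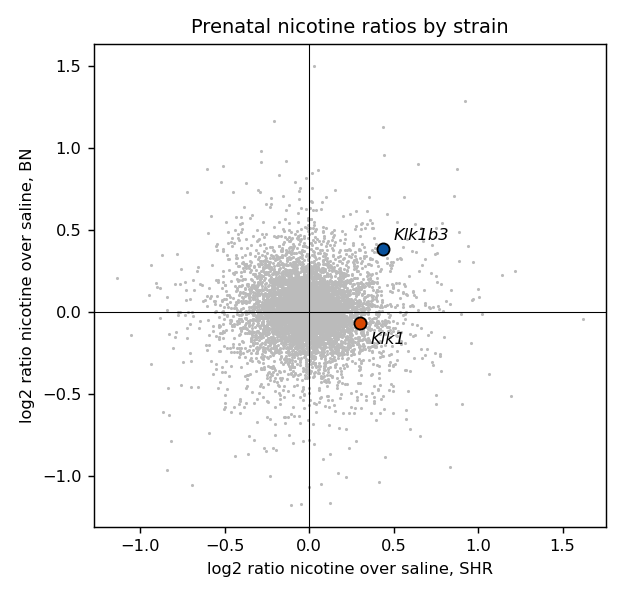
Log2 ratio of nicotine over saline in SHR (x axis) and in BN (y axis) for each probe set measured on at least 1 array (grey), with Klk1 and Klk1b3 marked. Klk1b3 lies at 0.44 and 0.39, to the upper right of most probe sets, and Klk1 at 0.30 and -0.07; Klk1c4 is not marked because its SHR pools were below the floor.

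Upstream and downstream of the enzyme, the kinin system was only partly visible. Of the kininogen genes, the substrates, Kng2l1 was the only one with a probe set named here, and it read from 10.7 to 25.7, below the floor. Of the receptors, Bdkrb1, the inducible B1 receptor, read 21.1 to 26.7. Bdkrb2, the B2 receptor present in normal kidney, read 25.8 and 33.9 in SHR and 48.6 and 49.3 in BN, below the measured level, so a difference was not detectable here. Plasma kallikrein, Klkb1, read at most 13.5. The kallikrein-related Klk6 and Klk8, which lie in the same gene cluster, read at most 4.44.

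Of a list of peptidases taken as shortening kinins, 9 of 12 with a probe set were measured. Ace, angiotensin converting enzyme, was not: it read at most 21.2 in SHR, and 42.2 and 51.4 in BN. Of 9 tested, 2 (Anpep and Enpep) were higher in SHR, 3 lower and 4 did not pass. Of all probe sets tested, 8.67% were called higher and 9.42% lower. The median log2 difference of the 9 was -0.11 against 0.002 over all. Enpep was 1.27-fold higher (adjusted p = 0.00139 with limma), and whether it acts on kinins was not tested. Anpep, aminopeptidase N of the proximal brush border, was 1.68-fold higher in SHR (adjusted p = 2.28e-07 with limma). Cpn1, the catalytic subunit of carboxypeptidase N, was 1.43-fold lower (adjusted p = 0.0163) and Xpnpep2, a membrane aminopeptidase P that cuts bradykinin, 1.32-fold lower (adjusted p = 0.00105, both with limma). Cpe, another carboxypeptidase, was at 0.50 (SE 0.19) and did not pass. Mme, neprilysin, was at -0.16 (SE 0.07, adjusted p = 0.149 with limma). Under nicotine 0 of 8 tested passed.

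Among protease inhibitors, 2 of 3 tested were lower in SHR and 0 higher, against 9.42% lower and 8.67% higher over all probe sets. Spink1, a secreted trypsin inhibitor, was 1.34-fold lower (adjusted p = 0.00196 with limma) and Spint2, a membrane-bound Kunitz inhibitor, 1.15-fold lower (adjusted p = 0.0379 with limma). Serpina4, kallistatin, which binds tissue kallikrein, was at 0.41 (SE 0.15, adjusted p = 0.0698 with limma). Serpina3c, the rat kallikrein binding protein, read at most 4.47. Of the other serine proteases of the tubule, 2 of 6 were lower in SHR and 1 was higher, against the same shares over all probe sets. Plat, tissue plasminogen activator, was 1.45-fold lower (adjusted p = 0.00233 with limma) and Hpn, hepsin, 1.36-fold lower (adjusted p = 0.00019 with limma).

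Of 9 tested markers of the distal and connecting tubule, where kidney kallikrein is made, 0 were higher in SHR, 1 was lower and 8 did not pass, with a median of 0.10. Over all probe sets 18.1% were called, so this count is near the background. Slc12a3, the thiazide-sensitive sodium chloride carrier of the distal convoluted tubule, was 1.25-fold lower (adjusted p = 0.0232 with limma). Scnn1g, the gamma subunit of the epithelial sodium channel, was at 0.42 (SE 0.15) and Scnn1b at 0.27 (SE 0.11), and neither passed. Calb1, the calcium-binding protein that marks the connecting tubule, named after its values were seen, read 1607.1 and 1313.6 in SHR and 1440.5 and 1402.9 in BN, saline before nicotine, a strain average of 0.03 (SE 0.07). The summed signal of the 14 markers with a probe set was, saline before nicotine, 3966.8 and 3643.8 in SHR and 3717.7 and 3718.0 in BN. Calb1 was the largest part of each sum, and 9 of the 14 were measured. The sums are therefore not read as a result for the whole segment. Of 10 tested markers of kidney epithelium, 6 were higher in SHR and 3 lower, against 18.1% of all probe sets called in either direction. The 6 were Slc34a1, Slc5a2, Slc22a6, Lrp2, Umod and Cdh16, at 0.23 to 0.37 (another tested Slc34a1 probe set was at 0.89). The 3 were Slc12a1, the loop sodium carrier (-0.76), Cubn, cubilin (-0.57), and Aqp2, the collecting duct water channel (-0.41).

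**Figure D4:**
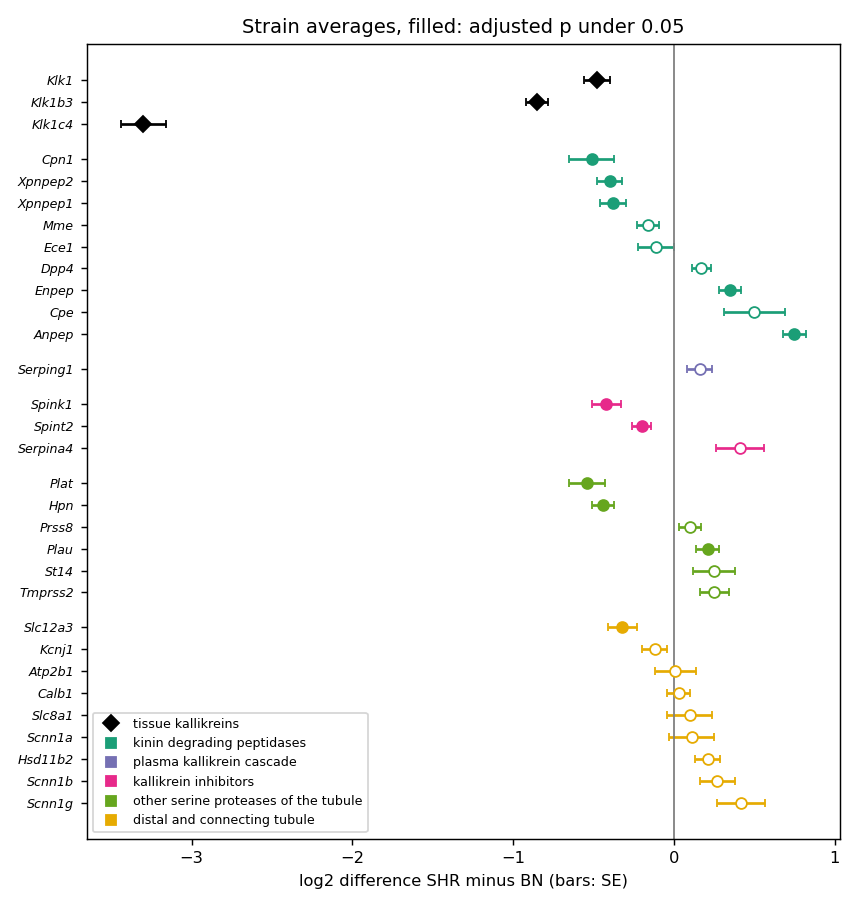
Log2 difference SHR minus BN averaged over treatments (points, bars SE) for the 3 measured kallikreins and the tested genes of 5 related lists; filled points passed the threshold. The kallikreins lie between -0.48 and -3.3, where the last (Klk1c4) is a bound set by the floor. The 9 distal and connecting tubule markers lie between -0.32 and 0.42. Whether the number of cells that make kallikrein differs was not tested.

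Tissues rich in kallikreins were looked for through their own markers. Of 14 pancreas markers with a probe set, 1 was measured. This was Cela1, an elastase, with 246.9 (saline) and 245.5 (nicotine) in SHR, 1198.6 and 1022.6 in BN, and an average 4.5-fold lower in SHR (adjusted p = 2.48e-12 with limma). The other 13, among them the trypsinogen gene Prss1 and the carboxypeptidase gene Cpa1, read at most 75.6. The summed signal of all 14 was, saline before nicotine, 545.0 and 508.2 in SHR and 1451.0 and 1251.7 in BN. Cela1 alone made up most of the BN sums, so the sums do not show a strain difference in the other 13. Of 8 salivary gland markers, Egf, which the distal tubule also makes, was the 1 measured, at -0.09 (SE 0.07), and the others read at most 53.3. The part of other tissue in the kallikrein differences was not tested. Of 7 adrenal markers 0 were measured, and of 5 adipocyte markers Lpl was, 1.55-fold lower in SHR. Of 9 blood and immune markers 5 were measured. Of 4 tested, 2 were higher in SHR, 0 lower and 2 did not pass, against 8.67% higher and 9.42% lower over all probe sets. The 2 were Lyz2, macrophage lysozyme, 1.7-fold higher, and Fcer1g, 1.29-fold higher. No marker on these lists was listed at 0.

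Genes around the kallikrein cluster gave few readings. Among the 25 protein-coding genes on each side of it in RefSeq order, 15 had a probe set named here and 4 were tested, 0 of which passed for strain with limma. Farthest from 0 was Napsa, a kidney aspartic protease, at 0.17 (adjusted p = 0.0776), followed by Etfb, of mitochondrial electron transfer, at -0.11 (adjusted p = 0.29, both with limma) and Nr1h2, a nuclear receptor, also at -0.11. Within the cluster, Klk6 and Klk8 were below the floor on all arrays.

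The genes whose pattern over the 4 arrays was nearest to each measured kallikrein were found by the Euclidean distance between log2 values centred on their mean, among 12777 other probe sets with 1 symbol. With only 4 arrays this is a description. Values below the floor were raised to it first, so for Klk1c4 the distances and their order rest on SHR values that are partly the floor itself. Nearest to Klk1c4 (distances 0.15 to 0.72) were Slc17a3, a phosphate and urate carrier gene, Rbp4, the retinol carrier, Ythdf2, the class II gene RT1-Bb and Wdr90. Slc17a3 read 16.5 and 15.4 in SHR against 414.4 and 436.9 in BN, saline before nicotine. Nearest to Klk1b3 (0.18 to 0.25) were Lss, of sterol synthesis, the cytochromes Cyp2c11 and Cyp2e1, the glycogen phosphorylase Pygl and the class II gene RT1-Db1. Lss read 45.3 and 54.0 in SHR, saline before nicotine, near the floor. Cyp2c11 read 623.6 and 811.9 in SHR and 1221.0 and 1288.9 in BN, in the same order of treatments. Nearest to Klk1 (0.04 to 0.07) were Aldh9a1, an aldehyde dehydrogenase, Tmem222, Abcc5, LOC102549726 and Gpatch8. Gpatch8 read from 41.0 to 68.5, below the measured level, and its SHR saline value was raised to the floor. Klk1 itself lay 0.53 from a flat pattern, Klk1b3 0.95 and Klk1c4 3.3.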

How the data were processed

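The authors deposited 1 signal intensity for each of 15923 probe sets on each of 4 arrays, made with MAS5 per the submitters' processing notes, with no version or setting stated there. Control probe sets (57) were left out. Symbols are those of the platform annotation, updated through the gene identifier to RefSeq. The members and gene lists were chosen with earlier results of these data known.

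Signals were raised to the floor (44.5), log2 transformed and fitted on the whole table with limma 3.58.1 in R 4.3.3 (strain plus treatment, lmFit, eBayes with an intensity trend, Benjamini-Hochberg over all probe sets tested, threshold 0.05). Probe sets entered if the higher of the 2 group means reached 89.0. With 1 residual degree of freedom, a nicotine response that is unequal in the strains counts as error. The fit was tested on simulated data. Ratios of single pools have no test. Lists use the brightest probe set of a gene. Named were all members, per list the 2 to 4 measured genes with the largest strain average and all kinin substrates and receptors, the 5 nearest patterns and 2 neighbouring genes; any other gene was chosen after its values were seen. Alternatives were the floor, a pseudocount, normalization between arrays, the filter, the trend, 1 probe set per gene, the model and leaving out each array.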

Additional observations from a re-analysis of the deposited data

How the results depend on the processing

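Of the 3 kallikreins lower in SHR, 3 passed under each change of floor, pseudocount or normalization between arrays. The 3 also passed with 1 probe set per gene and in a fit of strain alone. Klk1c4 entered through BN alone in these fits and had to differ, so its passing is not read as support. With the floor at the 20th percentile the count was 4, since Klk1c9 entered in the same way. Klk1c9 is therefore not counted as a further result. Without the intensity trend Klk1 was lost. With no filter on low probe sets 0 passed, and 0 of all 15866 probe sets did. Fits of strain alone were also made with 1 array left out. The log2 strain difference then ran from -0.63 to -0.33 for Klk1 and from -1.07 to -0.63 for Klk1b3. For Klk1c4, which had to differ here too, it ran from -3.36 to -3.23. Klk1 and Klk1b3 both lost the call without BN nicotine. For nicotine the count was 0 except with the floor at the 60th percentile, where it was 1 (Klk1b3, adjusted p = 0.00233 with limma). The Klk1c4 nicotine average turned to 0.16 with the floor at the 20th percentile and 0.08 with a pseudocount of 16 and no floor, since these let SHR values below the floor enter. Leaving out 1 array in fits of treatment alone mixes strain into the nicotine value, which then ran from -0.21 to 0.45 for Klk1, from -0.03 to 0.85 for Klk1b3 and from -1.74 to 1.62 for Klk1c4. The Klk1c4 strain ratio moved with the floor, from -4.32 to -2.24 under saline and from -3.74 to -2.12 under nicotine. No paired analysis was possible because each group is 1 pool and the labels carry no replicate numbers. Signal over background limits Klk1c2, Klk1c3, Klk1c9 and the SHR values of Klk1c4.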
